A study of Mus musculus with 124 samples.

Results

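Respiratory complex I is described here by 37 subunit genes, which are the gene symbols that begin with Nduf, go on with a, b, c, s or v and end in a number, together with Ndufab1. Genes for assembly factors, whose symbols begin with Ndufaf, were left out. The same 37 symbols were found among 27016 in the oocyte table, 25239 in the blastocyst table and 24409 in the table of the dorsal dentate gyrus (dDG), a part of the hippocampus. By role, 7 of them encode core subunits, 9 accessory subunits of the matrix arm and 19 accessory subunits of the membrane arm. Ndufab1, the mitochondrial acyl carrier protein, and Ndufa4, which biochemical work has assigned to complex IV, were kept apart. RefSeq places all 37 on GRCm38.p6, on 15 chromosomes, with Ndufa1 and Ndufb11 on the X chromosome. The spans of 10 members, among them Ndufa1, Ndufa2 and Ndufv2, meet that of another gene. The strand setting of the counting is not known, so reads of such neighbours could add to their values.

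Mice exposed to human chorionic gonadotropin (hCG, a hormone given to trigger ovulation) were compared with control mice (Ctrl). The exposed females, in natural estrus per the labels, were injected intraperitoneally with 7.5 IU of hCG and had no PMSG, the hormone often used for priming. Their metaphase II (MII) oocytes were taken 14 h later, while Ctrl females in estrus were each kept with a sterile vasectomised male and sampled on finding a vaginal plug. Mating and the time since ovulation were therefore not matched between the groups of oocytes, and no difference between them can be told apart from these. Blastocysts were flushed from the uterus at embryonic day 3.5, and dDG came from offspring aged 8 weeks after tribromoethanol and perfusion. The genotype field of the labels holds only Ctrl or hCG, and neither strain, litter nor batch is given. There were 6 oocyte, 28 blastocyst and 6 dDG libraries per group. Nothing in the labels says that libraries of a group came from separate females or litters, so p-values measure the spread between these libraries only. The other 44 samples of the series, bisulfite libraries, were not analysed here.

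Complex I is the first and largest enzyme of the mitochondrial respiratory chain. Its matrix arm takes electrons from NADH through a flavin and a chain of iron-sulfur clusters to ubiquinone, and its membrane arm pumps protons. Core subunits carry out this chemistry, whereas accessory subunits surround and stabilise them. Most subunits are encoded in the nucleus, and some of the membrane arm in mitochondrial DNA. Ovulated oocytes transcribe little and live on stored RNA and on maternal mitochondria, and respiration rises as the blastocyst forms.

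RNA amounts are given as CPM, each count scaled to a common library total. The oocyte libraries held 2379861 to 6924189 counts, the blastocyst libraries 3043231 to 10859379 estimated reads and the dDG libraries 14991584 to 17859654 counts. These depths leave oocyte members under 5 CPM with few counts per library. Cumulus markers were low in oocytes (summed 13.7 to 24.1 CPM, 4 of 10 genes at 0 in every library, with Cyp19a1 giving most of it), and Zp3, Mos and the other oocyte markers were present. Blastocysts carried trophectoderm and inner cell mass markers, and dDG carried the granule neuron markers in every library. In bulk tissue, fewer cells of a type and less RNA per cell cannot be told apart. Libraries that stood apart were blastocyst Ctrl 12 and 26, with 10382 and 10720 genes detected against 12203 to 14079 in the others. In 5 blastocyst hCG libraries (1, 3, 4, 22 and 23), Xist (69.4 to 165 CPM) stood together with Y-linked transcripts (126 to 173 CPM). In dDG, hCG 6 held 9601 CPM of choroid plexus markers against at most 105 CPM in each Ctrl library.

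Upstream sequences are shown for 3 members because their RNA differed between groups: Ndufa4 was called in oocytes and in blastocysts in one direction, Ndufb5 was called in both in opposite directions, and among the members called in blastocysts, Ndufa5 was the one with the core of the NRF1 site before its start. Each is the 250 bases before the transcription start given by RefSeq on GRCm38.p6, 5′ to 3′ on the strand of the gene. They lie at chr6:11907451-11907700 (minus strand), chr3:32736813-32737062 (plus strand) and chr6:24527691-24527940 (minus strand). The last 6 bases of the Ndufb5 window lie inside the gene span that RefSeq gives and that is printed further on, so the window was counted from a later start than the span's. Capitals mark that NRF1 core; NRF1 is a transcription factor known to act at many nuclear genes of the respiratory chain.
Ndufa4: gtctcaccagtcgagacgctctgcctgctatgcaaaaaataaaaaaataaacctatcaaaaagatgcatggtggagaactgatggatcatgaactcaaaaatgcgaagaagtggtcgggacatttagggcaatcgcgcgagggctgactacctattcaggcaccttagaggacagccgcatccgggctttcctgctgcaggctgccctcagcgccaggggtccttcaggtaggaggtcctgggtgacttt
Ndufb5: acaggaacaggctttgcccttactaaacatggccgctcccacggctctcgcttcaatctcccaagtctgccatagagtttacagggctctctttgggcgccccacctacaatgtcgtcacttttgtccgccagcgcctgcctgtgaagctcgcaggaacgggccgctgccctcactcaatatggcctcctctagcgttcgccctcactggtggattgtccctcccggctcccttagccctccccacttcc
Ndufa5: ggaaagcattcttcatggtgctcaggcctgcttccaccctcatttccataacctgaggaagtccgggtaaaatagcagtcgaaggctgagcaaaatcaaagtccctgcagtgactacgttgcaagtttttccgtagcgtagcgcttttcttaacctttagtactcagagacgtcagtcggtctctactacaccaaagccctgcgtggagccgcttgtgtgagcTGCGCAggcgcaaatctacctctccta
The window of Ndufa5 holds that core, and those of Ndufa4 and Ndufb5 hold none of the 6 motifs searched.

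Of the 37 members, 33 had a promoter window in the RefSeq table, 35 windows in all. Searched on both strands in the 250 bases before the start, the NRF1 core TGCGCA was in 8 of the 35 windows (22.9%) and in 6.43% of all 32851 windows. The ETS motif CCGGAAG was in 3 member windows (8.57%, against 6.91% of all), and the oestrogen-related receptor motif AAGGTCA also in 3 (8.57%, against 4.08%). The GC box GGGCGG was in 14 (40.0%, against 32.7%) and the CCAAT box CCAAT in 10 (28.6%, against 33.9%). The YY1 motif AAGATGGC was in none of the member windows before the start and in 1.57% of all windows. When the 50 bases after the start were added, YY1 was in 7 of 35 (20%, against 2.75% of all windows of 300 bases), each of them downstream of the start. Those 7 were Ndufa3, Ndufa9, Ndufb8, Ndufc1, Ndufs4, Ndufs6 and Ndufs7. Of the 7 members called in blastocysts below, Ndufs4 had YY1, Ndufa5 had the NRF1 core, and neither motif was in the windows of the other 5. No matched NRF1, ETS, YY1 or oestrogen-related receptor motif overlapped another in the member windows. A match describes letters only.

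In MII oocytes most complex I transcripts had lower fitted values after hCG, and few passed the test. Of the 37 members, 28 passed the filter on low counts. Ndufb5 rose and Ndufa4 fell (edgeR quasi-likelihood test, adjusted p under 0.05). That is 3.57% of the 28 in each direction, against 1.33% of all 9565 genes tested called higher and 2.67% called lower (3.99% in either direction). The median log2 fold change of hCG against Ctrl was -0.50 over the 28 members and 0.01 over all genes tested, and 24 of the 28 were negative, against 49.3% of all genes. Without adjustment, 12 members were lower at p under 0.05 (42.9%, against 10.1% of all genes) and 1 was higher (3.57%, against 8.77%). The filter let members in by their counts in either group, so these shares describe only those that passed.

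Summed over the 37 members, complex I transcripts took 1003 to 1573 CPM in the 6 Ctrl oocyte libraries (mean 1184 ± 213, SD, n = 6). In the 6 hCG libraries the sum ran from 629 to 909 CPM (755 ± 118), so that the groups did not overlap. Ndufa4 alone made up much of it. Without Ndufa4 the sums were 716 to 1095 CPM in Ctrl and 556 to 743 CPM in hCG, which overlap. Each hCG library had between 19 and 25 of the 28 tested members below the Ctrl median, and each Ctrl library between 4 and 19.

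**Figure D1:**
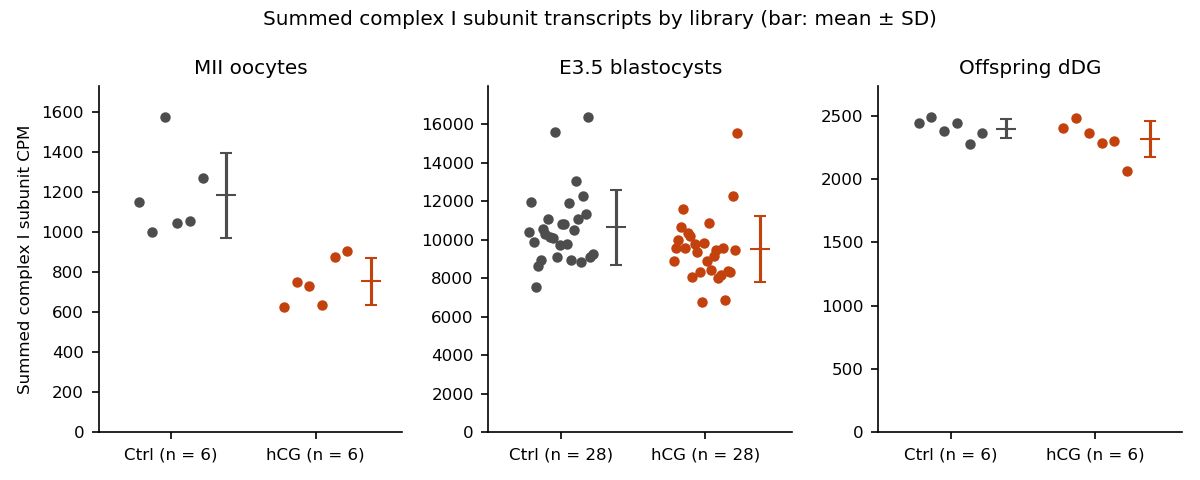
Summed CPM of the 37 complex I subunit genes (vertical axes, from 0, a different scale in each panel) in every library of MII oocytes, E3.5 blastocysts and offspring dDG. Points are libraries, grey for Ctrl and orange for hCG, and bars are the mean ± SD. The oocyte groups do not overlap (629 to 909 against 1003 to 1573 CPM), and in the other 2 materials they do.

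Among core subunits of the oocyte, 4 of 7 could be tested and none passed. Ndufs1, which holds iron-sulfur clusters at the entry of the electron path, was at 7.56 ± 1.77 CPM in Ctrl and 7.86 ± 1.50 in hCG (log2 0.04 ± 0.27, SE). Ndufs3, a matrix arm subunit, was at 4.18 ± 1.58 and 7.12 ± 2.42 CPM (0.71 ± 0.35, adjusted p = 0.278). Ndufv2, which holds an iron-sulfur cluster beside the flavin, was at 14.8 ± 3.72 and 10.9 ± 4.01 CPM (-0.46 ± 0.27, adjusted p = 0.382). Ndufs7, Ndufs8 and Ndufv1, the flavin-binding subunit, averaged at most 1.60 CPM in either group and were not tested.

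All 6 tested accessory genes of the matrix arm were negative in oocytes, with a median of -0.66, and none passed. Ndufs4, an accessory subunit whose loss causes Leigh-like disease in mice, ran from 38.9 to 54.4 CPM in Ctrl with a median of 44.6. In hCG oocytes it ran from 23.8 to 37.6 with a median of 31.6. Every hCG library lay below every Ctrl library, yet the fitted change of -0.58 ± 0.18 missed the threshold (adjusted p = 0.0709). Ndufa2, a small matrix arm subunit, likewise did not overlap (Ctrl 11.2 to 19.8 CPM, hCG 5.27 to 11; -0.92 ± 0.27, adjusted p = 0.0625). These were the 2 members of 28 whose groups did not overlap downward, a separation that 1.90% of all genes tested showed, and none was separate upward (1.13% of all genes). Ndufa6 was at 30.7 ± 8.22 and 19.1 ± 4.20 CPM (-0.70 ± 0.21, adjusted p = 0.0647).

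Of the 16 tested accessory genes of the membrane arm, Ndufb5 rose and 14 had negative values (median -0.42). Ndufb5 encodes a subunit of the proton-pumping arm and lies at chr3:32737057-32751559. It ran from 4.20 to 12.7 CPM in Ctrl (median 7.31) and from 11.3 to 23.7 CPM in hCG (median 17.9). All 6 hCG libraries lay above the Ctrl median, and the lowest hCG library lay below the highest Ctrl library. The change was 1.11 ± 0.28 (adjusted p = 0.0302). It ended (adjusted p up to 0.0768, log2 0.92 to 1.17) without Ctrl 1, 2 or 5, without hCG 1, 2 or 4, without Ctrl 2 and 4 together, and in the fit with the replicate number as a block.

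Ndufa1, an X-linked membrane arm subunit needed for assembly, had the most negative value among the tested members in oocytes and did not pass. It averaged 74.4 ± 27.2 CPM in Ctrl and 20.4 ± 22.4 in hCG, a change of -1.91 ± 0.58 (adjusted p = 0.0872). Its hCG libraries ran from 4.36 to 58.2 CPM, the widest relative spread of any oocyte member averaging 5 CPM or more (coefficient of variation 110.0%), and all 6 lay below the Ctrl median. Ndufa11, also of the membrane arm, varied widely in hCG too (11.8 ± 10.0 CPM, against 26.9 ± 8.76 in Ctrl; -1.21 ± 0.39, adjusted p = 0.0956). Ndufs5 was at 13.2 ± 4.31 and 7.15 ± 2.22 CPM (-0.91 ± 0.29, adjusted p = 0.0830). Ndufa10 and Ndufa4 had the most reads when both groups of oocytes were averaged, although Ndufab1 came before Ndufa10 in Ctrl and before Ndufa4 in hCG. Ndufa10 ran from 104 to 217 CPM in Ctrl (median 186) and from 109 to 209 CPM in hCG (median 171). Its groups overlapped throughout (-0.12 ± 0.19, adjusted p = 0.793). Read numbers grow with transcript length, which was not at hand, so they do not order the genes by molecules.

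Ndufab1, which carries acyl groups in mitochondrial fatty acid synthesis and is also built into complex I, missed the threshold narrowly in oocytes. It ran from 131 to 223 CPM in Ctrl (median 179) and from 110.0 to 144 CPM in hCG (median 125). All 6 hCG libraries lay below the Ctrl median, with a change of -0.54 ± 0.15 (adjusted p = 0.0536). It passed in 5 of 19 alternative settings.

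Ndufa4 showed the largest loss of reads. It lies at chr6:11900372-11907450 and overlaps no other gene of the RefSeq table. It ran from 219.6 to 478 CPM in Ctrl (median 331) and from 49.6 to 235 CPM in hCG (median 80.7). All 6 hCG libraries lay below the Ctrl median, and 1 of them, at 235 CPM, lay above the lowest Ctrl library. The change was -1.57 ± 0.29 (adjusted p = 0.00371). It stayed past the threshold in 18 of 19 alternative settings and missed it when no filter on low counts was used (adjusted p = 0.0772). Ndufa4l2, its near copy, was at 0 CPM in all oocyte libraries.

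**Figure D2:**
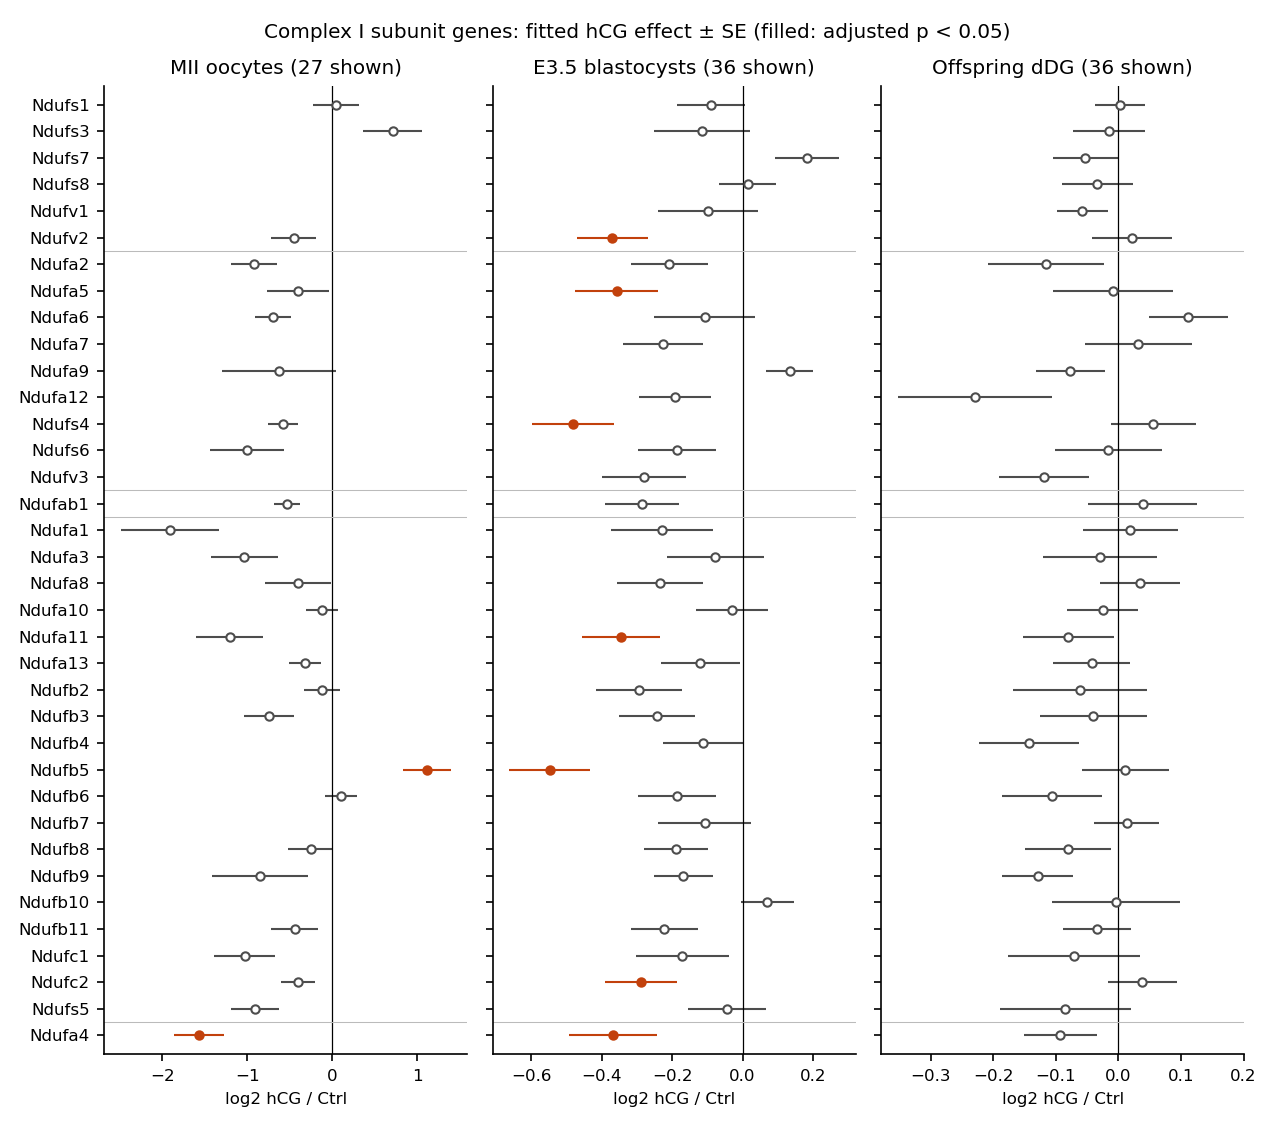
Fitted log2 fold change of hCG against Ctrl (horizontal axes, a different scale in each panel) for complex I subunit genes tested in MII oocytes (27 shown), E3.5 blastocysts (36 shown) and offspring dDG (36 shown), with bars of 1 SE. Grey lines part core subunits, matrix arm, Ndufab1, membrane arm and Ndufa4, from top to bottom, and filled orange points passed an adjusted p of 0.05. Most points lie left of 0 in oocytes and blastocysts, and in dDG they lie between -0.23 and 0.11.

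Other genes of respiration did not all share this pattern in oocytes. Of 35 tested nuclear genes of complexes II to V, Cox6a1, a subunit of complex IV, fell (-1.42 ± 0.39, adjusted p = 0.0484), none rose, and the median was -0.19. Of these 35 genes, 23 were negative. Without adjustment 25.7% of them were lower and 5.71% higher, against 10.1% and 8.77% of all genes. The 5 tested mitochondrially encoded genes (mt-Nd1, mt-Nd2, mt-Nd4, mt-Nd5 and mt-Nd6) encode membrane arm subunits of complex I itself and lie outside the 37. They had a median of -0.01 and none passed. Together with the untested mt-Nd4l, their sum was 7386 ± 1995 CPM in Ctrl and 7394 ± 2222 in hCG. Of 11 tested assembly factors, 2 fell: Tmem70 (-1.01 ± 0.18, adjusted p = 0.00300), which helps to build ATP synthase and complex I, and Ndufaf8 (-0.93 ± 0.22, adjusted p = 0.0222). Their median was -0.07. Of 13 tested mitochondrial mass markers Vdac2, a channel of the outer membrane, fell (-1.08 ± 0.19, adjusted p = 0.00267), and the median was 0.04. Of 9 tested regulators of mitochondrial biogenesis none passed. Oocyte markers also moved with the groups: 2 of 8 fell, Zp3 and Mos, with a median of -0.46, and their sum was 7409 to 10930 CPM in Ctrl and 5799 to 8138 CPM in hCG. Their part in the complex I values was not tested.

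In blastocysts, 7 of the 37 members fell and none rose (limma on log2 of CPM plus 1, adjusted p under 0.05). That is 18.9% lower, against 7.57% of all 10850 genes called lower and 8.68% called higher (16.2% in either direction). The 7 changes ran from -0.55 to -0.29. The median over the 37 members was -0.19 and over all genes 0.02, and 32 of 37 were negative, against 46.9% of all genes. Without adjustment 13 members were lower (35.1%, against 14.3% of all genes) and 1 was higher (2.7%, against 16.4%). All 37 passed the filter.

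The sum over the 37 members was 10646 ± 1942 CPM in Ctrl blastocysts (7550 to 16349, n = 28) and 9516 ± 1719 in hCG blastocysts (6796 to 15557, n = 28). The groups overlapped widely. The highest sums were those of Ctrl 26 and 12, the 2 libraries with the fewest genes detected, and of hCG 28. Ctrl 6, 9, 10 and 11 had fewer genes detected than hCG 28 and sums of 8948 to 11059 CPM. Their depth was also unlike that of hCG 28 (5182840 estimated reads), with 6211233 in Ctrl 6 and 9343514 to 10859379 in the other Ctrl libraries named. How the sum relates to genes detected and depth was not tested. A median of 25.5 of 37 members per hCG library lay below the Ctrl median (range 6 to 36), and 19 per Ctrl library (range 4 to 32).

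The blastocyst calls moved with the number of genes detected per library, which was 12968 ± 798 in Ctrl and 13549 ± 335 in hCG. With that number as a covariate none of the 37 passed, their median was -0.05, and 21 were negative. Calls over all genes also fell there, from 16.2% to 7.14% in either direction, and their median was -0.02. Without Ctrl 12 and 26 there were 3 lower members (740 of 10905 genes lower), and 6 without these and hCG 28 (881 of 10907). Without the 5 hCG libraries that held Xist and Y-linked transcripts there were 3 (480 of 10909 genes lower). On the deposited values with no scaling, 6 of 37 members were called higher and none lower. Of all 10850 genes, 3655 were called higher and 15 lower there (33.8% in either direction). The median was 0.49 over all genes and 0.25 over the members. Relative to all genes the members were thus lower on both scales, but the direction of the calls depends on the scaling. Of 7 trophectoderm markers, 4 were negative and 3 positive: the factor Eomes fell (-0.69 ± 0.17, adjusted p = 0.00402), and Gata3 (0.39 ± 0.16, adjusted p = 0.0765) and Tfap2c (0.35 ± 0.15, adjusted p = 0.105) were positive and did not pass. Nanog, an inner cell mass factor, rose (0.58 ± 0.19, adjusted p = 0.0313). Summed trophectoderm markers were at 5192 ± 2550 CPM in Ctrl and 4794 ± 1418 in hCG. The 3 inner cell mass markers were all positive, and their sum was 207 ± 86.0 CPM in Ctrl and 303 ± 135 in hCG. All 4 primitive endoderm markers were negative (median -0.50), and none passed. What cell makeup adds to the complex I values was not tested.

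**Figure D3:**
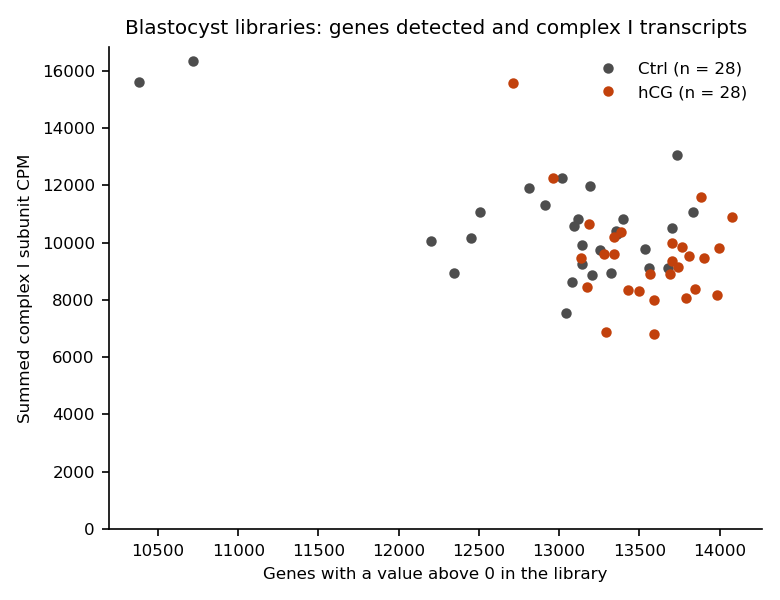
Summed complex I CPM (vertical axis, from 0) against the number of genes with a value above 0 (horizontal axis) in the 56 blastocyst libraries, 28 Ctrl (grey) and 28 hCG (orange). The 2 Ctrl libraries at the left, with 10382 and 10720 genes, have sums of 15593 and 16349 CPM, and hCG 28, with 12712 genes, has 15557.

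Of the 7 core subunits Ndufv2 fell in blastocysts. It lies at chr17:66078795-66101559, where its span meets that of Ankrd12, and the strand setting of the counting is not given in the sources used here. It ran from 236 to 732 CPM in Ctrl (median 362) and from 192 to 447 CPM in hCG (median 273). Of the 28 hCG libraries 4 lay above the Ctrl median, and the groups overlapped. The change was -0.37 ± 0.10 (adjusted p = 0.00932). The other 6 core genes did not pass. Ndufs7 was at 287 ± 76.6 and 324 ± 44.5 CPM (0.18 ± 0.09, adjusted p = 0.165), and Ndufs1, Ndufs3, Ndufs8 and Ndufv1 lay between -0.12 and 0.01.

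In the matrix arm, Ndufs4 and Ndufa5 fell and the other 7 did not pass. Ndufs4, at chr13:114287795-114388094, ran from 103 to 399 CPM in Ctrl (median 199.5) and from 84.2 to 269 CPM in hCG (median 151). Of the hCG libraries, 4 of 28 exceeded the Ctrl median (-0.48 ± 0.12, adjusted p = 0.00370). Ndufa5, at chr6:24518662-24527690, ran from 249 to 851 CPM in Ctrl (median 365) and from 193 to 680.3 CPM in hCG (median 314). Of the hCG libraries, 6 of 28 exceeded the Ctrl median (-0.36 ± 0.12, adjusted p = 0.0286). Ndufa9, a subunit near the ubiquinone site, was the exception in sign, at 376 ± 63.4 CPM in Ctrl and 418 ± 45.4 in hCG (0.13 ± 0.07, adjusted p = 0.160), with 23 of 28 hCG libraries over the Ctrl median. Ndufa12, one of the 2 members with the most reads in blastocysts, ran from 300.4 to 1281 CPM in Ctrl (median 609) and from 424 to 986 CPM in hCG (median 515). It did not pass (-0.19 ± 0.10, adjusted p = 0.193).

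In the membrane arm, Ndufb5, Ndufa11 and Ndufc2 fell and 18 of 19 members were negative. Ndufb5 had the smallest p of all members. It ran from 134 to 481 CPM in Ctrl (median 221) and from 82.3 to 268 CPM in hCG (median 166). Of the hCG libraries, 5 of 28 exceeded the Ctrl median (-0.55 ± 0.12, adjusted p = 0.00114). With genes detected as a covariate its value was -0.31 ± 0.11 (adjusted p = 0.0637).

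Ndufa11, at chr17:56717762-56724248, encodes a membrane arm subunit. It ran from 177 to 624 CPM in Ctrl (median 336) and from 160.3 to 539 CPM in hCG (median 276). Of the hCG libraries, 5 of 28 exceeded the Ctrl median (-0.35 ± 0.11, adjusted p = 0.0260), and its near copy Ndufa11b averaged 0.0034 CPM. Ndufc2, at chr7:97400003-97407800, ran from 77.1 to 233 CPM in Ctrl (median 120.1) and from 66.3 to 127 CPM in hCG (median 105). Again 5 of 28 hCG libraries exceeded the Ctrl median (-0.29 ± 0.10, adjusted p = 0.0454). Its call was the least steady of the 7 and ended in 7 of 12 alternative settings. Ndufb8, with the most reads of all members, ran from 518 to 1277 CPM in Ctrl (median 877) and from 523 to 1528 CPM in hCG (median 784). It did not pass (-0.19 ± 0.09, adjusted p = 0.146).

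Ndufab1 again missed the threshold narrowly, at 357 ± 90.2 CPM in Ctrl and 298 ± 62.3 in hCG blastocysts (-0.29 ± 0.11, adjusted p = 0.0509). Ndufa4 fell. It ran from 276 to 1074 CPM in Ctrl (median 458) and from 209 to 857 CPM in hCG (median 367), and 3 of 28 hCG libraries exceeded the Ctrl median. The change was -0.37 ± 0.12 (adjusted p = 0.0353). For Ndufb4 and Ndufs5 the near copies Ndufb4c (mean 40.1 CPM) and Ndufs5-ps (mean 22.8 CPM) are listed in the blastocyst table, so reads could have been split between copies and these 2 members are less certain.

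**Figure D4:**
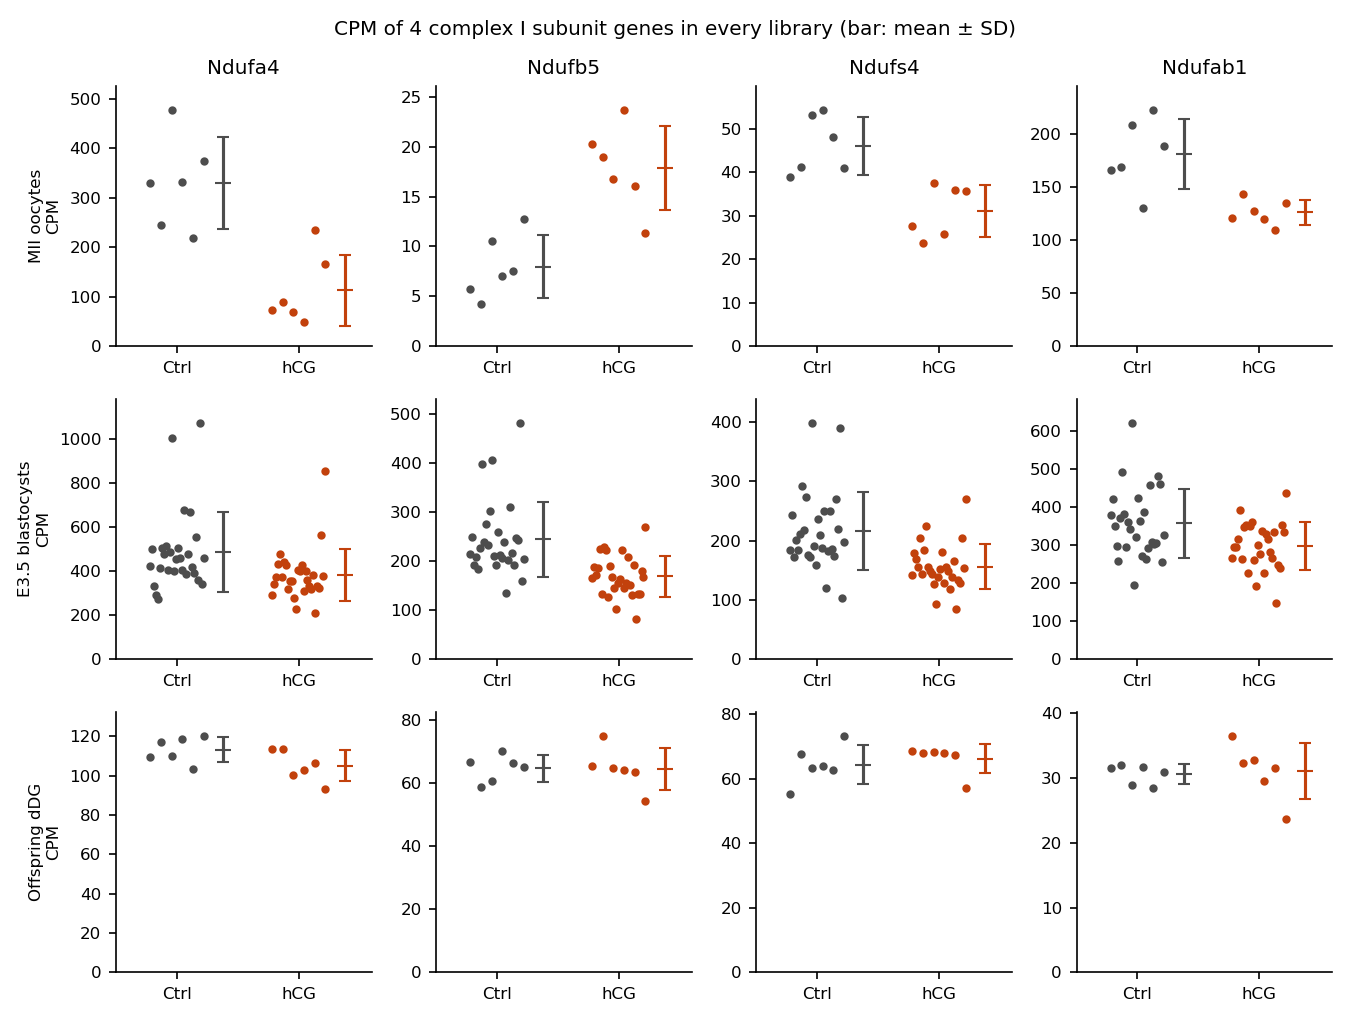
CPM of Ndufa4, Ndufb5, Ndufs4 and Ndufab1 (columns) in every library of oocytes, blastocysts and dDG (rows). Vertical axes start at 0 and differ between panels, points are libraries (grey Ctrl, orange hCG), and bars are the mean ± SD. Ndufb5 is higher in hCG oocytes (11.3 to 23.7 against 4.20 to 12.7 CPM) and lower in hCG blastocysts (median 166 against 221 CPM).

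Complexes II to V also had more genes lower than higher in blastocysts. Of 38 genes, 9 fell (23.7%, against 7.57% of all genes) and 1 rose (2.63%, against 8.68%). The median was -0.18, and 34 of 38 were negative. Without adjustment 50% were lower, against 35.1% of the complex I members and 14.3% of all genes, and 5.26% were higher. The called genes with the smallest p were Atp5pb (-0.28 ± 0.07, adjusted p = 0.00390), Cox7a2 (-0.40 ± 0.12, adjusted p = 0.0188), Atp5j2 (-0.39 ± 0.12, adjusted p = 0.0207) and Atp5h (-0.31 ± 0.10, adjusted p = 0.0219), subunits of ATP synthase and of complex IV. Assembly factors went both ways: Ndufaf4 (-0.40 ± 0.10, adjusted p = 0.00516) and Nubpl (-0.36 ± 0.11, adjusted p = 0.0165) fell, and Tmem70 (0.37 ± 0.10, adjusted p = 0.00656) and Acad9 (0.45 ± 0.14, adjusted p = 0.0248) rose, among 17. Of 15 mitochondrial mass markers Phb2, a prohibitin of the inner membrane, rose (0.43 ± 0.13) and Hspe1, the mitochondrial co-chaperonin, fell (-0.30 ± 0.10), with a median of 0.01. Of 11 tested biogenesis regulators the coactivator Ppargc1b fell (-0.48 ± 0.15, adjusted p = 0.0244).

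The hCG effect differed between oocytes and blastocysts for 5 of the 28 members compared (17.9%, against 15.1% of all 7178 genes compared), which is close to the share of all genes. The test was a two-sided Wald test of the difference of the 2 log2 fold changes, both from limma on log2 of CPM plus 1. Its p was adjusted over all genes compared. Ndufb5 was the one whose effect changed sign, from 1.10 ± 0.27 in oocytes to -0.55 ± 0.12 in blastocysts (difference -1.65 ± 0.29, adjusted p = 1.94e-06). For the other 4 the oocyte value was the more negative: Ndufa4 (difference 1.34 ± 0.31, adjusted p = 0.000601), Ndufa1 (2.14 ± 0.54, adjusted p = 0.00173), Ndufa11 (1.07 ± 0.38, adjusted p = 0.0374) and Ndufs5 (0.77 ± 0.29, adjusted p = 0.0467). Of the 28, 22 were negative in both materials. The tables were made separately, so levels are not compared across them.

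**Figure D5:**
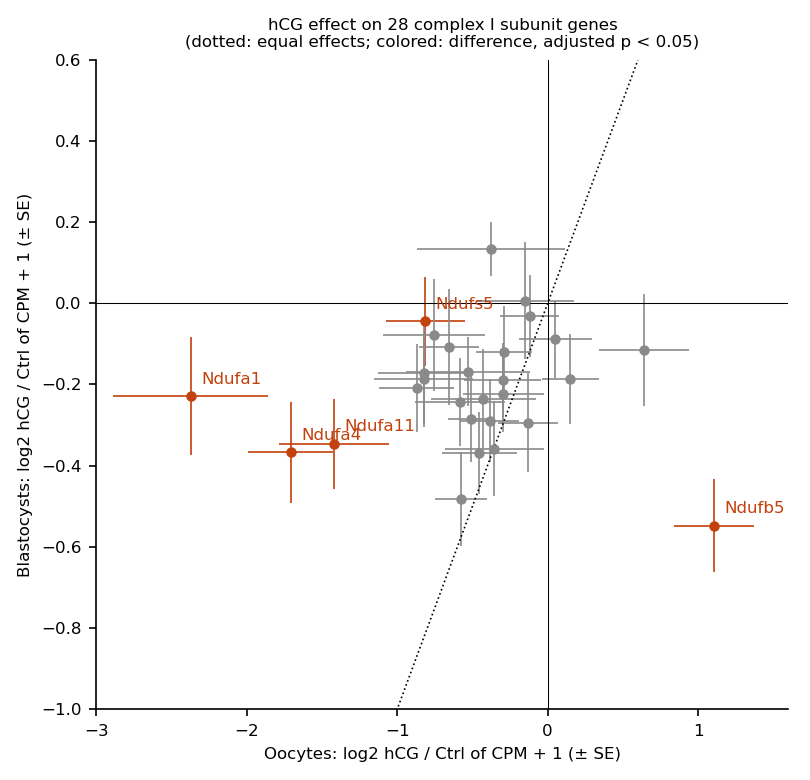
Log2 fold change of hCG against Ctrl in blastocysts (vertical axis) against that in oocytes (horizontal axis) for the 28 complex I subunit genes tested in both, each with bars of 1 SE, on log2 of CPM plus 1. The dotted line marks equal effects, and the axes differ in scale. The 5 orange points, Ndufb5, Ndufa4, Ndufa1, Ndufa11 and Ndufs5, differ between the materials at an adjusted p under 0.05, and Ndufb5 alone of these lies right of 0.

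In the dDG of offspring no complex I gene passed. All 37 members were tested with edgeR's quasi-likelihood test and none was called in either direction, against 7.86% of all 13874 genes (4.67% higher, 3.19% lower). DESeq2 called none of the members as well, against 11.5% of all genes. In the edgeR test without adjustment 1 member, Ndufb9, was lower (2.7%, against 11.3% of all genes), and none was higher (12.6% of all genes). The fitted values lay between -0.23 and 0.11 with a median of -0.03 (0.01 over all genes), and 25 of 37 were negative, against 48.9% of all genes. In no member did the 2 groups stay clear of each other, a separation that 2.13% of all genes showed downward and 2.38% upward. The spread within groups was small: the median coefficient of variation over members was 5.75% in Ctrl and 9.26% in hCG, against 29.3% and 24.3% in oocytes.

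Summed complex I transcripts took 2398 ± 76.3 CPM in Ctrl dDG (2274 to 2486, n = 6) and 2315 ± 143 in hCG dDG (2063 to 2482, n = 6). The groups overlapped, and the lowest library was hCG 6, the one rich in choroid plexus markers. It had 35 of 37 members below the Ctrl median, against 11 to 27 in the other hCG libraries and 4 to 34 in Ctrl, where Ctrl 5 had 34. Without hCG 6 the members' median was 0.00 and 18 of 37 were negative, and without hCG 1 the median was -0.06 and 34 were negative. The part of choroid plexus in these values was not otherwise tested.

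The 3 members with the smallest p in dDG were Ndufb9, Ndufa12 and Ndufb4. Ndufb9, a membrane arm subunit at chr15:58933801-58939516, ran from 97.8 to 104 CPM in Ctrl (median 100.2) and from 75.3 to 99.6 CPM in hCG (median 92.5). All 6 hCG libraries lay below the Ctrl median (-0.13 ± 0.06, adjusted p = 0.181). Ndufa12, a matrix arm subunit, ran from 62.1 to 98.2 CPM in Ctrl (median 85.7) and from 55.9 to 87.1 CPM in hCG (median 67.6), with wide overlap (-0.23 ± 0.12, adjusted p = 0.270). Ndufb4 ran from 33.0 to 38.3 CPM in Ctrl (median 35.6) and from 26.5 to 37.4 CPM in hCG (median 32.0), also overlapping (-0.14 ± 0.08, adjusted p = 0.290).

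Ndufs1, a core subunit among those with the most reads in dDG, ran from 156 to 162 CPM in Ctrl (median 158) and from 152 to 164 CPM in hCG (median 158; 0.00 ± 0.04). The genes called in oocytes or blastocysts gave small values here: Ndufa4 -0.09 ± 0.06, Ndufb5 0.01 ± 0.07, Ndufs4 0.06 ± 0.07, Ndufv2 0.02 ± 0.06, Ndufa5 -0.01 ± 0.10, Ndufa11 -0.08 ± 0.07 and Ndufc2 0.04 ± 0.06. None of 38 genes of complexes II to V (median -0.05) and none of 15 assembly factors (median -0.01) passed either. Of 15 mitochondrial mass markers Tomm20, an import receptor, fell (-0.19 ± 0.04, adjusted p = 0.0122).

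The dDG table gives expected counts per transcript, and 6 of the 37 members had more than 1. For Ndufv3, a matrix arm accessory gene, the transcript NM_001083891 took 54.6% ± 2.82 of the gene's counts in Ctrl and 57.5% ± 6.73 in hCG (SD, n = 6), and NM_030087 the rest. The hCG libraries ran from 47.6% to 66.4% and enclosed the Ctrl range of 50.2% to 58.3%. For Ndufs1, NM_145518 took 62.1% ± 3.45 and 64.7% ± 2.05, and NM_001160040 33.0% ± 2.87 and 32.0% ± 1.17. Ndufa7, Ndufs6, Ndufs8 and Ndufv2 were each carried by 1 main transcript, with mean shares between 86.5% and 99.97%. The ranges of the 2 groups overlapped for each main transcript, and these shares are estimates made without a test.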

How the data were processed

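Of 124 samples, the 80 RNA libraries were used. The deposited oocyte table holds counts per gene symbol. The deposited blastocyst table holds a signal, estimated counts times a factor per library of unstated basis, and 89.02% to 93.45% of each column lay within 0.005 of a multiple of 1 step. Dividing by the column total removes that factor, and dividing by the step gave the estimated reads used for depth, filter and TMM factors. The deposited dDG table holds expected counts per RefSeq transcript, here summed per gene and rounded. Per the submitters' processing notes, Trim Galore 0.6.4, Trimmomatic 0.32, STAR 2.7.6a, TopHat, HTSeq 0.12.4 and the builds mm10 and GRCm38 were used, with no role given. No column of values was left without a sample.

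For oocytes and dDG the test was edgeR's quasi-likelihood F test (version 4.0.16, robust, TMM, default filter of 10 counts and 15 in total, R 4.3.3). Blastocysts were tested with limma 3.58.1 (trend, robust) on log2 of TMM-normalised CPM plus 1, a scale that understates changes of low genes. Two-sided p were adjusted (Benjamini-Hochberg) over the genes of each table that passed the filter: 9565 in oocytes, 10850 in blastocysts and 13874 in dDG. Calls needed an adjusted p under 0.05. Errors of log2 values are SE, and those of CPM are SD. Both fits were also run on simulated counts, with changes larger than those called in blastocysts, so that run does not vouch for calls of that size. DESeq2 1.42.0, other filters, pseudocounts, scalings, covariates and libraries were alternatives. Every member could be named, except that 1 is not reported here by name, though it stays in counts, sums and fits. Values per library are given for called members, the 2 with the most reads and, with fewer than 3 calls, the 3 of smallest p per table, and up to 4 called genes per other list. The members and lists were chosen with earlier results of these data known. The choice of motifs and of sequences shown followed the values. Replicate numbers do not pair samples.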

Additional observations from a re-analysis of the deposited data

Results flagged for a closer look

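Ndufb9 in dDG hCG 6 was 75.3 CPM, apart from the other 5 hCG libraries (90.9 to 99.6 CPM). The gap to its nearest neighbour was 0.641 of the group's range, above the critical ratio of 0.625 for 6 samples. It was the 1 library of this kind in 24 groups of 6 libraries tested, and chance alone marks about 1 group in 20. The same library held the highest choroid plexus sum, and its part in this value was not tested.

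The hCG effect differed between oocytes and blastocysts, by the Wald test of the difference itself, for Ndufb5 (blastocyst minus oocyte -1.65), Ndufa4 (1.34), Ndufa1 (2.14), Ndufa11 (1.07) and Ndufs5 (0.77). In oocytes the groups also differed in mating and in the time since ovulation, whose part in these values was not tested.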

How the results depend on the processing

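In oocytes, the count of lower members was 8 of 28 with DESeq2 (430 of all 9565 genes lower). With no filter it was 0 of 37 (277 of 21577 genes), and at a mean CPM of at least 5 it was 2 of 24 (269 of 7823). Without Ctrl 2 and 4 it was 7 of 29 (324 of 9969 genes). With genes detected as a covariate it was 6 of 28 (331 of 9565), and with the replicate block 2 of 28 (217 of 9565). The count of higher members was 0 with the block (119 genes higher) and without Ctrl 2 and 4 (271 genes higher). Leaving out 1 library at a time gave 0 to 1 higher and 1 to 4 lower members, the most without Ctrl 4, and 247 to 657 genes called, and DESeq2 called 695 genes and the fit without Ctrl 2 and 4 called 595. In blastocysts, 6 members were higher and 0 lower on deposited values without scaling (3670 of 10850 genes called, 99.6% of them higher). There Ndufa11 (0.087), Ndufa4 (0.067), Ndufa5 (0.076), Ndufc2 (0.144) and Ndufv2 (0.064) turned positive with none past the threshold. The number lower was 3 without hCG 1, 3, 4, 22 and 23 (1147 genes called), 3 without Ctrl 12 and 26 (1496 genes called), and 0 with genes detected as a covariate (775 genes called). Leaving out Ctrl 12 and 26, with or without hCG 28, was chosen after seeing the data. The replicate block gave 8 lower members in blastocysts (1539 genes called) and 0 in dDG. No dDG member passed in any setting run. There the genes called were 583 with the block and 310 with the Y-linked level as a covariate (a level among 12 libraries that all carried Y-linked transcripts, which does not stand for sex), and 649 to 1231 without 1 library. The members whose effect differed between oocytes and blastocysts were 3 at a pseudocount of 5 and 8 without oocyte Ctrl 2 and 4. The share of all genes was not taken in these settings, so the counts do not speak for complex I in particular. Same-numbered samples deviated together by more than 0.1 in 2 of 6 oocyte, 3 of 28 blastocyst and 1 of 6 dDG pairs, and 2, 1 and 0 Ctrl libraries correlated best with their own number. edgeR on estimated blastocyst reads was not run, since too few values were whole. The cause of these moves was not tested. The 9 oocyte members that were not tested had few counts, and whether depth or a low level set this was not tested.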
